A study of Mus musculus with 50 samples.

Results

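The 9 genes described here encode the subunits of the AMPA and kainate classes of ionotropic glutamate receptor in the mouse: Gria1, Gria2, Gria3 and Gria4 for AMPA receptors, and Grik1, Grik2, Grik3, Grik4 and Grik5 for kainate receptors. They were taken by symbol from the 55385 genes in the expression files, as gene families but with earlier results of these data known. All 9 passed the filter on low counts in every comparison. RNA-seq covered 28 libraries of spinal motor neurons, and ATAC-seq, which maps open chromatin by transposase cutting, covered 22 libraries with 2 in each of the same 11 conditions. In vivo RNA came from E10.5 (3 libraries), E13.5 (2), P4 (3), P13 (2), P21 (3), P56 (3) and animals 2 years old (2yr, 2), and RNA of motor neurons derived from mouse embryonic stem cells came from days in vitro DIV0 (2), DIV7 (2), DIV28 (3) and DIV28 with 1 µM tetrodotoxin (TTX), a sodium channel blocker that silences firing, added from DIV0 on (3). The E10.5 libraries held whole cells sorted from Hb9-GFP embryos, whereas all later ages and all cultures held nuclei marked by a tagged nuclear membrane protein under Chat-Cre (SUN1-GFP-3xMYC in the labels, SUN1-sfGFP-Myc in the methods). Tissue nuclei for RNA were pulled down from pooled brachial and lumbar cords of several animals of both sexes. The E10.5 cells and the tissue nuclei for ATAC-seq were sorted by fluorescence and came from thoracic cord as well. Chat-Cre acts in every cholinergic cell, so visceral motor neurons and cholinergic interneurons are included beside skeletal motor neurons. The study also cites a report that Chat-Cre labels GABAergic and glutamatergic neurons in adult cord. Its own deconvolution of the P56 RNA found no significant part of non-cholinergic cells. The cultured neurons came from a single stem cell line with the same alleles; at DIV0 they were still in embryoid bodies, and from then on they grew on mouse cortical astrocytes.

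A DIV28 culture library, called replicate 3 or the titled-DIV0 library below, carries a title that gives DIV0 while its file is named for DIV28. It is used as DIV28, and culture results are also given without it. The study's own replicate counts for culture RNA are 2 at DIV0 and 3 at DIV28, the same as in this use. The depth ran from 2704682 to 21823500 summed expected counts per library. All 5 motor neuron markers examined (Chat, Slc5a7, Slc18a3, Isl1 and Mnx1) were detected in every condition, and their summed normalised count was 1602 in E13.5 replicate 1 and 767, the lowest of all libraries, in E13.5 replicate 2, beside 1849 to 3406 at E10.5 and 2525 to 2832 at P4. The same E13.5 libraries held 10425 and 10521 normalised counts of 5 erythroid markers, beside 0 to 2.3 at E10.5 and 1137 to 1541 at P4, and 4005 and 7588 of 3 endothelial markers, beside 3.8 to 11.1 at E10.5 and 2920 to 3880 at P4. The part these markers have in the E13.5 results below was not tested. In bulk libraries, fewer cells of a type and less RNA per cell cannot be told apart. At E10.5 the mouse line, the sort, the use of whole cells and, for RNA, the thoracic cord cannot be told apart from age. The labels do not tie replicates to separate litters or cultures beyond the numbering, so p-values measure the spread between these libraries.

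AMPA and kainate receptors are tetramers that open when glutamate binds, and AMPA receptors carry most fast excitation of motor neurons. The Gria2 subunit, whose pore residue is recoded by RNA editing, limits calcium entry through AMPA receptors, so receptors without it pass calcium. Among kainate receptors, the Grik1, Grik2 and Grik3 subunits can form channels by themselves, whereas the Grik4 and Grik5 subunits bind glutamate with high affinity but need one of those to reach the membrane as a working channel.

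On the mm10 build, the AMPA genes lie at chr11:57011387-57330244 (Gria1, plus strand), chr3:80681450-80802835 (Gria2, minus), chrX:41400854-41678601 (Gria3, plus) and chr9:4417896-4796234 (Gria4, minus). The kainate genes lie at chr16:87895900-88290265 (Grik1, minus), chr10:49094833-49788766 (Grik2, minus), chr4:125490700-125714173 (Grik3, plus), chr9:42518135-42944493 (Grik4, minus) and chr7:25009849-25072346 (Grik5, minus). Grik2 is the longest, at 693934 bases, and Grik5 the shortest, at 62498.

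The members differ in the sequence around their start sites. The mouse RefSeq promoter table, 250 bases before to 50 bases after a start on the GRCm38.p6 build, held 6 of the 9 members, namely Gria2, Gria4, Grik2, Grik3, Grik4 and Grik5. Those of 3 genes are printed, chosen because they carry the least common match (Gria2) or belong to the 2 kainate genes called lower from E10.5 to E13.5 (Grik3 and Grik5), in lower case from 5′ to 3′ on the strand of the gene with motif matches in capitals. Capitals mark a 14-base core of the RE1 element (AGCACC, any 2 bases, GGACAG) in Gria2, and GC boxes, GGGCGG, in Grik3 and Grik5, each sought on both strands.
Gria2, chr3:80802786-80803085, minus strand: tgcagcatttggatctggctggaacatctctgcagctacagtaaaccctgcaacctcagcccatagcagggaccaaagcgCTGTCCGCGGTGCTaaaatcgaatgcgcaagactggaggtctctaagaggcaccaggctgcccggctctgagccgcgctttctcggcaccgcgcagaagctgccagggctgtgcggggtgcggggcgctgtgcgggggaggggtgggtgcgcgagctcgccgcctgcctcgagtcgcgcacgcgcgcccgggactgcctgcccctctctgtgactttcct
Grik3, chr4:125490446-125490745, plus strand: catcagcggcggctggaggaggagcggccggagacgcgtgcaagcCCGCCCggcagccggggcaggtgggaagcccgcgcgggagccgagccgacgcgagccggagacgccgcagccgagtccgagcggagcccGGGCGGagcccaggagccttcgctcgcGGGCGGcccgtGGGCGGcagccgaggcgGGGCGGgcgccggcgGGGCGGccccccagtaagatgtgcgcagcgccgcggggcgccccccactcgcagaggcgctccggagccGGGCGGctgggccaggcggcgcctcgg
Grik5, chr7:25072320-25072619, minus strand: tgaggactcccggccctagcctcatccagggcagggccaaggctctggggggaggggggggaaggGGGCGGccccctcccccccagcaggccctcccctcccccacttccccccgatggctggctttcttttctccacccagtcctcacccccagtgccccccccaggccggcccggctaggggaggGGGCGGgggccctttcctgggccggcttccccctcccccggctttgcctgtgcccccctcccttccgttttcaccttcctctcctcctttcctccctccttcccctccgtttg
The RE1 letters, which were chosen with the Gria2 promoter in view, lie on the opposite strand with their first base at position -170, and 0.0517% of the 32851 promoters in the table hold them. RE1 is the element bound by the repressor REST, which is low in neurons. The Grik3 promoter is 82% G and C, beside a median of 52.7% over all promoters, and holds 50 CpG pairs, more than 99.1% of promoters, and 7 GC boxes. Grik5 is GC-rich too, at 72%, but holds only 10 CpG pairs beside a median of 7, and 2 GC boxes. A GC box is found in 35.7% of promoters. No match to a cyclic AMP response element, TGACGTCA (1.79% of promoters), or to a Mef2 site, CTA and TAG with any 4 bases between (3.69%), was found in the 6 windows.

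In vivo, AMPA subunit RNA went from near absence at E10.5 to a plateau by P4. The summed normalised count of Gria1 to Gria4, that is expected counts divided by a median-of-ratios size factor, was 91 ± 30 (SD, n = 3) at E10.5 and 12274 ± 372 (n = 3) at P4, and then stayed between 11107 and 13703 on average at the later ages. Kainate subunit RNA moved less, from 981 ± 285 (n = 3) at E10.5 to 3109 ± 411 (n = 3) at P4 and 2178 to 2281 on average at every later age. Between E10.5 and E13.5, 6 of the 9 members rose and 2 fell at an unadjusted p under 0.001 and at least 2-fold in edgeR's quasi-likelihood test, where 24.6% of 15030 genes were called higher and 19.4% lower. The median log2 fold change was 2.92 over the members and 0.13 over all genes. Between E13.5 and P4, 8 members rose and none fell, beside 23.8% of genes called higher and 19% lower, with medians of 2.13 and 0.12. These comparisons share the E13.5 libraries, of which replicate 2 had less of every member than replicate 1.

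**Figure D1:**
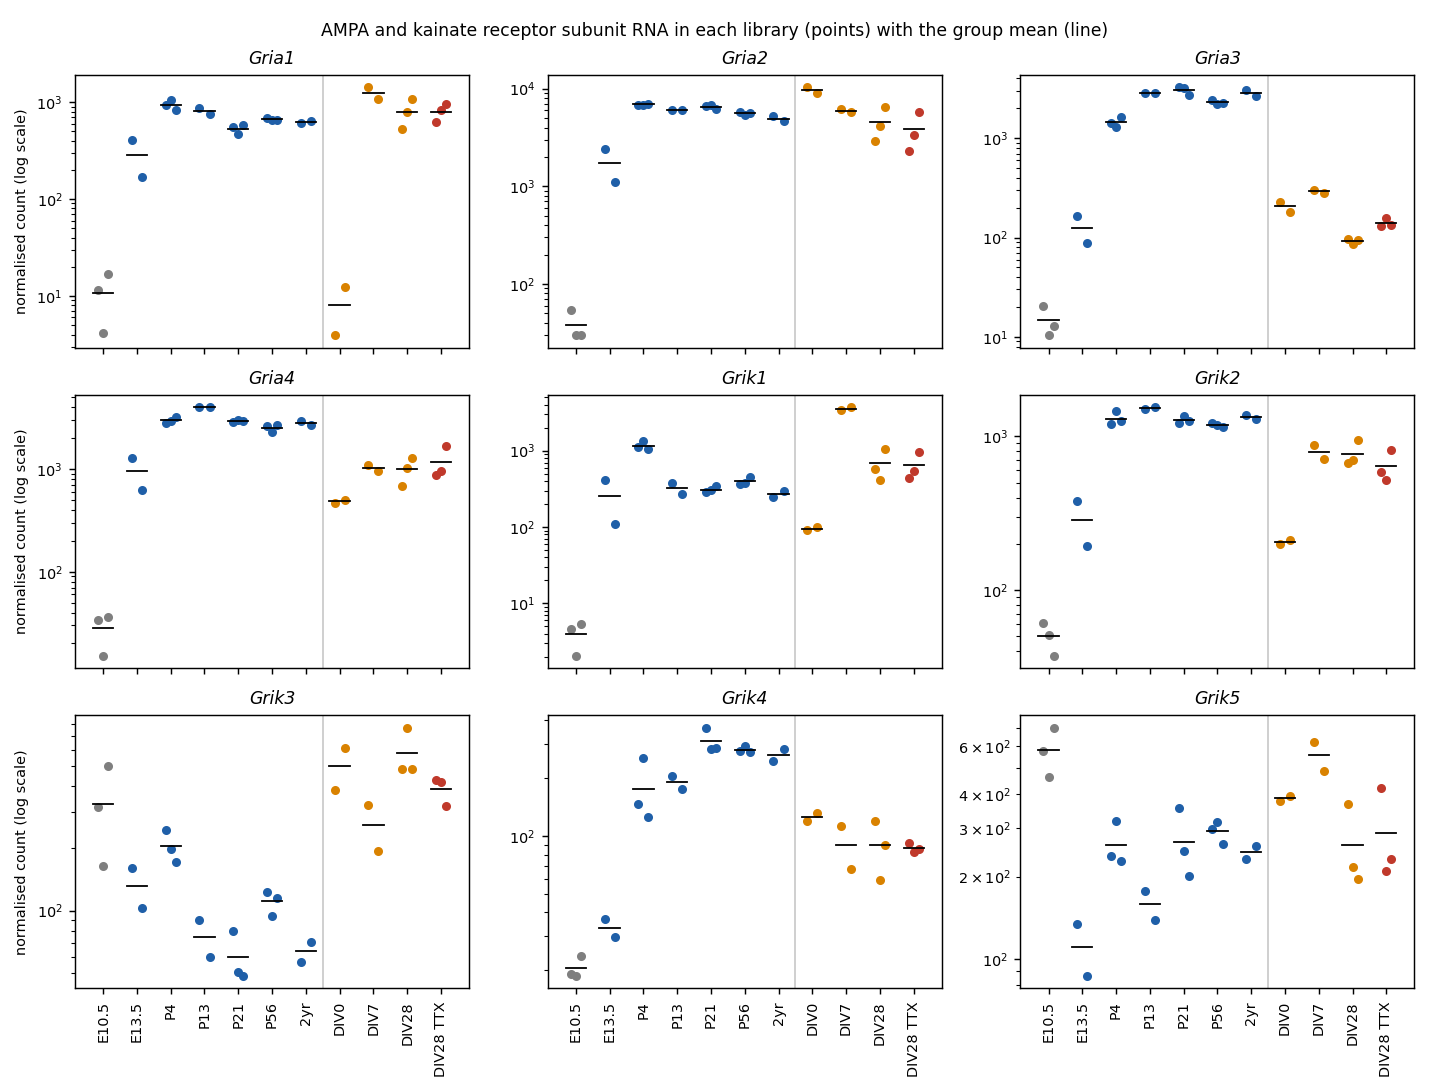
Normalised count (log scale) of each of the 9 subunit genes in each of the 28 RNA libraries (points), by condition, with the group mean as a line; E10.5 is grey, later ages blue, cultures orange and TTX red. Gria3 is high in every library from P4 to 2 years and low in every culture library, Gria1 is near the bottom of its axis at E10.5 and DIV0, and Grik3 is lowest in the P13, P21 and 2yr groups.

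Gria2 had the largest share of AMPA subunit TPM in every library from E13.5 on, in tissue and in culture. Its normalised count was 53.45, 29.73 and 29.75 in the E10.5 libraries, 2386 and 1104 at E13.5 and 6834, 6858 and 6972 at P4. The 3 groups did not overlap, and the gene rose by 5.38 ± 0.28 (log2, SE; adjusted p = 6.25e-11) and then by 2.13 ± 0.26 (adjusted p = 1.81e-06). From P13 to 2 years the group means lay between 4948 and 6532, with no call between neighbouring ages. The DIV0 libraries stood highest of all, at 10414 and 8948, which is 5.49-fold above E13.5 (log2 2.46 ± 0.33, adjusted p = 1.43e-06). Gria2 then read 6180 and 5750 at DIV7 and 2927, 4155 and 6566 at DIV28, with the titled-DIV0 library the highest of the DIV28 group. Neither culture step passed the test: the log2 change was -0.69 from DIV0 to DIV7 (95% interval -1.64 to 0.26) and -0.37 from DIV7 to DIV28 (-1.23 to 0.48).

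Gria1, whose subunit carries much of the activity-dependent delivery of AMPA receptors to synapses, was the member with the widest swing in culture. The DIV0 libraries held 3 and 8 expected counts of it, or 3.92 and 12.2 normalised counts, and the DIV7 libraries 1435 and 1068 normalised counts. The summed counts differ 157-fold, with a counting interval of 87.5 to 315, and the fitted change was 7.30 ± 0.55 (log2, adjusted p = 7.38e-06). In the DIV28 libraries Gria1 read 530, 785 and 1087, and the step from DIV7 was not called (log2 -0.62, interval -1.36 to 0.11). In tissue the rise was spread over 2 called steps, and its size and timing were not tested against those in culture. Gria1 read 11.45, 4.15 and 16.78 at E10.5, 404 and 169 at E13.5 and 929, 1056 and 839 at P4, steps of 4.56 ± 0.37 (adjusted p = 8.30e-09) and 1.89 ± 0.30 (adjusted p = 3.18e-05). By P21 it was at 552.5, 464 and 579, below all 3 P4 libraries, although no single step after P4 was called.

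Gria3, whose gene lies on the X chromosome, differed more between P21 and DIV28 than any other member, while at E13.5 its level lay within the range of the cultures. Its normalised count was 20.62, 10.37 and 12.97 at E10.5, 163 and 88.4 at E13.5, 1411, 1285 and 1642 at P4 and 2847 and 2816 at P13. It was the one member called higher at each of these 3 steps, by 2.92 ± 0.27 (adjusted p = 4.08e-08), 3.70 ± 0.25 (adjusted p = 2.59e-09) and 1.06 ± 0.21 (adjusted p = 0.000808). At P21 it read 3272, 3165 and 2723. The step from P4 to P13 sat at the 2-fold limit: it was 0.98 without P4 replicate 2, and without P13 replicate 1 it was 1.02 with an unadjusted p of 0.00119, neither of which was called. It was also not called with median-of-ratios factors (0.99), in DESeq2 (0.99) or in a fit of P4 and P13 alone (0.995). Among cultures the highest value was 304. Gria3 read 230 and 182 at DIV0, 304 and 278 at DIV7 and 97.3, 86.2 and 93.4 at DIV28, so that it fell by 1.64 ± 0.24 (log2) from DIV7 to DIV28 (adjusted p = 0.00146) while it had risen by 4.78 ± 0.27 from E13.5 to P21 (adjusted p = 5.13e-11).

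Gria4, which contributes fast-gating AMPA receptors, rose with Gria2 in the embryo and had the second share of AMPA subunit TPM at E13.5, P4 and P13. It read 33.6, 15.21 and 35.85 at E10.5, 1270 and 632 at E13.5, 2799, 2960 and 3237 at P4 and 4003 and 4000 at P13. The first 2 steps were called, at 4.92 ± 0.29 (log2, adjusted p = 2.00e-10) and 1.81 ± 0.26 (adjusted p = 1.10e-05). From P13 the level was lower at P21 (2874, 3037 and 2969), a difference of -0.52 that missed the test (interval -1.03 to -0.01). The P13 libraries also held the most oligodendrocyte marker RNA (10567 and 10714 normalised counts of 5 markers, beside 5949 to 8135 at P21), whose part in the P13 levels was not tested. In culture Gria4 went from 464 and 503 at DIV0 to 1095 and 963 at DIV7, a log2 difference of 1.10 (unadjusted p = 0.0103 in edgeR's test, adjusted p = 0.0461).

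Kainate subunits did not move as a block. At E10.5 their RNA was mostly Grik5 and Grik3, and the genes that form channels by themselves, Grik1 and Grik2, were low. Grik5, an obligate partner subunit, read 573, 463 and 700 at E10.5 and 134 and 86.7 at E13.5, which do not overlap, and fell by 2.57 ± 0.28 (log2, adjusted p = 2.72e-07). It rose again to 237, 319 and 228 at P4, by 1.42 ± 0.27 (adjusted p = 0.000159), a call that was lost without E13.5 replicate 2 (1.13, unadjusted p = 0.00301). Grik3, a channel-forming subunit of low glutamate affinity, read 316, 165 and 503 at E10.5 and 162 and 103 at E13.5. Its fall of 1.49 ± 0.37 (log2, adjusted p = 0.00154) was the least secure of the embryonic calls, and its E10.5 libraries spread from 165 to 503. Leaving out either E13.5 library, E10.5 replicate 1 or E10.5 replicate 3 ended it, with values from -1.84 to -0.85. By P21 Grik3 was at 79.7, 50.6 and 48.4, lower than in any culture library, which ran from 195 to 769.

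Grik1, a channel-forming subunit, had the largest fold rise of the embryonic step and the largest fall after P4. The E10.5 libraries held 4.58, 2.07 and 5.34 normalised counts, the E13.5 libraries 407 and 109 and the P4 libraries 1102, 1341 and 1037. The rises were 5.81 ± 0.50 (log2, adjusted p = 1.91e-08) and 2.35 ± 0.37 (adjusted p = 2.31e-05). The summed counts of E13.5 and E10.5 differ 51.7-fold (counting interval 31.6 to 90.9). At P13 Grik1 was down to 379 and 273, by 1.73 ± 0.35 (log2, adjusted p = 0.00118), and without P13 replicate 2 this fall was 1.51 and not called (unadjusted p = 0.00496). Of the 9 members, Gria3, with the limits given above, was called higher and Grik1 lower from P4 to P13, beside 5.8% of genes called higher and 7.54% lower. Grik3 was lower as well by 1.35 (adjusted p = 0.0109), short of the unadjusted limit. In culture Grik1 also rose and then fell: it read 90.2 and 99.4 at DIV0, 3378 and 3707 at DIV7 and 583, 417 and 1050 at DIV28. Both steps were called, at 5.23 ± 0.52 (log2, adjusted p = 4.03e-05) and -2.36 ± 0.39 (adjusted p = 0.00257), and the second was -2.80 (adjusted p = 0.00183) without the titled-DIV0 library.

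Grik2, the main channel-forming kainate subunit of many central neurons, and Grik4, the second high-affinity partner, both followed a plain rise in tissue. Grik2 read 61.1, 51.2 and 37.4 at E10.5, 380 and 194 at E13.5 and 1198, 1467 and 1257 at P4, 2 calls of 2.35 ± 0.23 each (log2, adjusted p = 7.26e-08 and 1.11e-07), and from P13 to 2 years its group means lay between 1185 and 1532. Grik4 read 36.9 and 29.6 at E13.5, 146, 253 and 125 at P4 and 366, 284 and 286 at P21. It was not called between E10.5 and E13.5 (log2 0.52, interval -0.11 to 1.15), and it was 10.6-fold higher at P21 than at E13.5 (log2 3.40 ± 0.28, adjusted p = 7.06e-09). In culture Grik2 rose from DIV0 to DIV7, from 200 and 211 to 881 and 709 (log2 1.96 ± 0.30, adjusted p = 0.000754), and kept to 666, 706 and 943 at DIV28. Cultured Grik4 stayed between 58.79 and 131.5 without TTX, with log2 changes of -0.48 and 0.01.

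After P13 no member was called between neighbouring ages. Of all genes, 7.3% were called between P13 and P21, 0.173% in the step to P56 and 0.685% in the step to 2 years. On the log2 scale the members lay between -0.70 (Gria1) and 0.66 (Grik5) in the first of these steps. In the step to P56 they lay between -0.41 (Gria3) and 0.89 (Grik3, interval 0.11 to 1.67), and in the last between -0.69 (Grik3) and 0.36 (Gria3). At an unadjusted limit of 0.05 in edgeR's test 4 members passed in the first step (Gria1, Gria4, Grik4 and Grik5, with adjusted p-values of 0.0720 to 0.139), 2 in the second (Gria3 and Grik3, adjusted p of 0.753 and 0.715) and 0 in the last. Over the whole nuclear span from E13.5 to P21, 6 members rose (Gria3, Grik4, Grik2, Gria2, Gria4 and Grik5) and none fell, beside 29.8% of genes called higher and 26.3% lower. Gria1 had a value of 1.07 (adjusted p = 0.00334) and Grik1 of 0.45, which without E13.5 replicate 1 became 1.82 and 1.67 and were both called. Grik5 was not called without E13.5 replicate 2 (1.17, unadjusted p = 0.00239).

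Placed in order of mean normalised count over the 11 conditions, each gene has its own course, and most neighbours in the order overlap in their libraries. Gria1 was highest at DIV7 (1251 ± 260, n = 2), above all P4 libraries (941 ± 109, n = 3), and lowest at DIV0 (8.08 ± 5.88, n = 2), which overlaps E10.5. Gria2 was highest at DIV0 (9681 ± 1037, n = 2), without overlap with P4, the next. Gria3 had P21 (3053 ± 291, n = 3), P13 and 2yr at its top, which overlap, and P56 below them (2308 ± 120, n = 3). Gria4 was highest at P13 (4001 ± 2, n = 2), without overlap, and the TTX, DIV7, DIV28 and E13.5 groups overlap in the middle.

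Among kainate genes, Grik1 was highest at DIV7 (3542 ± 233, n = 2), without overlap with P4, and from P4 down to E13.5 each group overlaps the next. Grik2 was highest at P13 (1532 ± 22, n = 2) and lowest at E10.5 (49.9 ± 11.9, n = 3), neither overlapping its neighbour. For Grik3, DIV28 (579 ± 165, n = 3), DIV0 and TTX stood highest, and 2yr (63.6 ± 10.1, n = 2) and P21 (59.6 ± 17.5, n = 3) lowest, each overlapping its neighbours. Grik4 had P21, P56 (281 ± 11.3, n = 3) and 2yr (264 ± 27.1, n = 2) at its top, which overlap, above P13. Grik5 was highest at E10.5 (579 ± 119, n = 3), overlapping DIV7 (554 ± 97.5, n = 2), and lowest at E13.5 (110 ± 33.4, n = 2), below every library of P13, the next.

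Shares within a family set the subunits side by side per length, as the TPM of a subunit over the summed TPM of its family in the same library, and do not depend on scaling between libraries. Over the 15 nuclear in vivo libraries, the share differed between ages for 8 of the 9 subunits in a permutation test of 100000 resamples (at an adjusted p of 0.05 over the 9). The exception was Grik5, at an adjusted p of 0.0659. Gria2 made up 37.5% to 51.7% of AMPA subunit TPM on average at the ages from E13.5 to 2 years (permutation adjusted p = 0.000225). The share of Gria4 was lower and that of Gria3 higher at P21 than at E13.5. Gria4 went from 40.1% and 44.5% at E13.5 to 19.7%, 22.2% and 24.5% at P21, and Gria3 from 3.92% and 3.75% to 30.6%, 30.0% and 24.3%. The permutation test over all these ages gave adjusted p-values of 0.000378 for Gria4 and 0.000225 for Gria3. E13.5 and P21 were not tested against each other alone. The course of Gria4 was not steady, with 23.8%, 25.8% and 26.1% at P4 and 36.8% and 37.4% at P13. In P21 replicate 3 Gria4 was still level with Gria3. Expressed as a ratio to Gria2 in the same library, Gria3 was at 0.0825 ± 0.00157 (SD, n = 2) at E13.5, 0.322 ± 0.0657 (n = 3) at P4 and 0.62 ± 0.0794 (n = 3) at P21. Gria1 was a minor part of the AMPA family in postnatal tissue, at 2.91% to 7.46%.

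**Figure D2:**
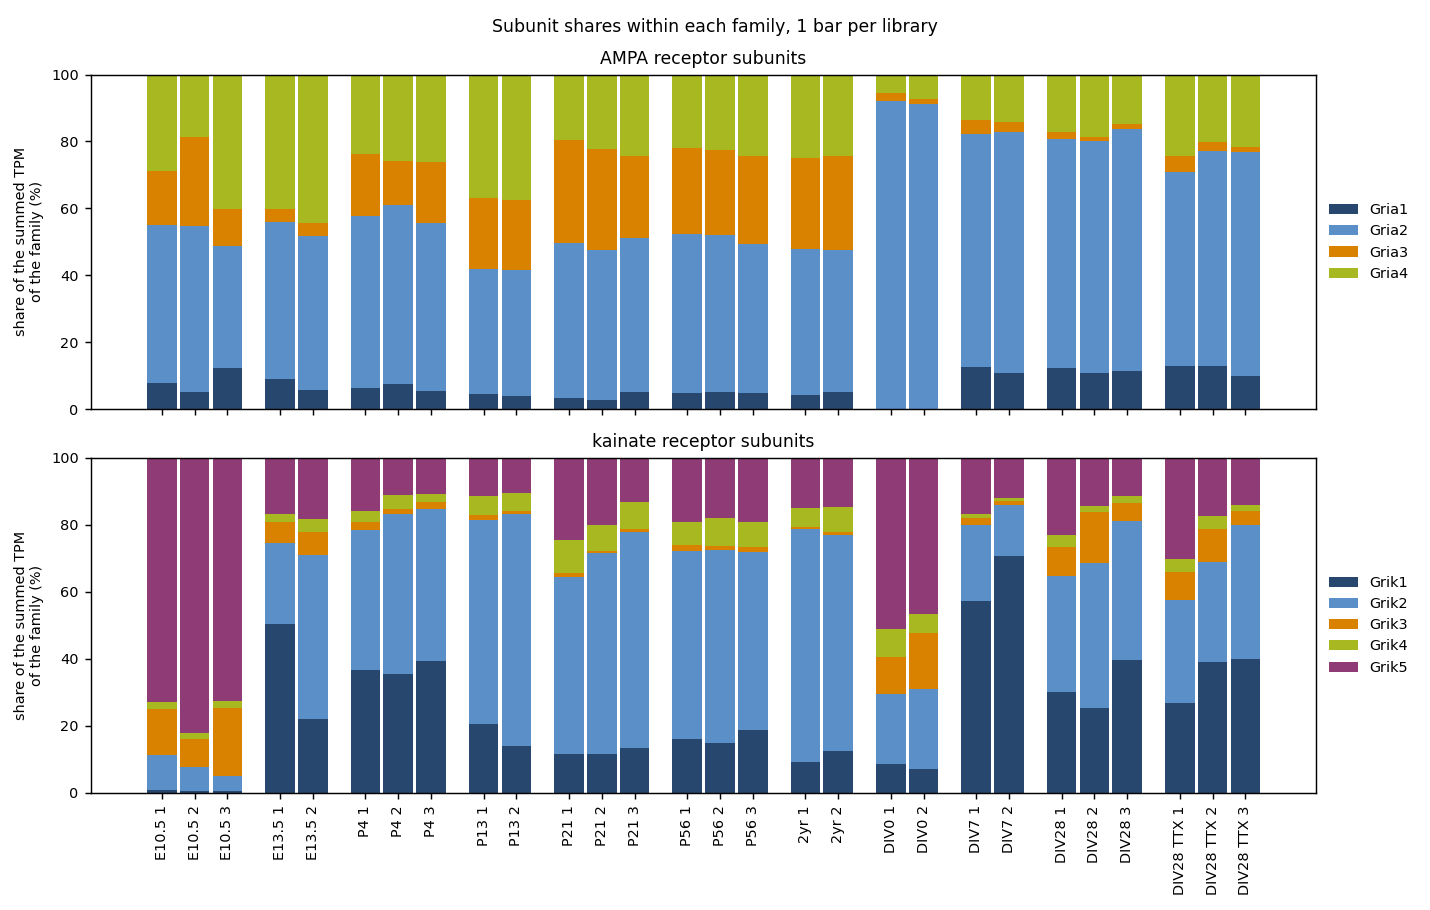
Share of each subunit in the summed TPM of its family (%), 1 stacked bar per RNA library, AMPA above and kainate below. Gria3 is a visible band in tissue from P4 on and a thin one in culture, Gria2 fills over 90% of both DIV0 bars, and the main kainate subunit passes from Grik5 at E10.5 to Grik2 in postnatal tissue.

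In the kainate family, Grik5 held 75.9% ± 5.41 (SD, n = 3) of the TPM at E10.5, and Grik2 held 59.3% ± 5.89 (n = 3) at P21. The ratio of Grik5 to Grik2 within a library was 11.6 ± 4.70 (n = 3) at E10.5, 0.534 ± 0.223 (n = 2) at E13.5 and 0.336 ± 0.13 (n = 3) at P21. The 2 partner subunits drew closer with age, the ratio of Grik4 to Grik5 going from 0.0262 ± 0.00342 at E10.5 through 0.272 ± 0.0975 at P4 to 0.464 ± 0.127 at P21 (n = 3 each). Grik1 took 36.6%, 35.4% and 39.4% at P4 and 11.5%, 11.5% and 13.2% at P21 (permutation adjusted p = 0.0135 over the ages). The E13.5 libraries disagree on it, with 50.3% in replicate 1 and 22.1% in replicate 2, so its embryonic share is known only within that range.

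In culture the families were composed differently. At DIV0, Gria2 held 92.2% and 90.9% of AMPA subunit TPM and Gria1 only 0.0276% and 0.226%; the ratio of Gria1 to Gria2 was 0.0003 and 0.00249. At DIV7 the same ratio was 0.182 and 0.151, and Gria1 had taken 12.6% and 10.9% of the family. By DIV28, Gria2 held 68.4%, 69.4% and 72.5% and Gria3 only 2.06%, 1.29% and 1.39%, beside 24.3% to 30.6% at P21. Among kainate subunits, Grik5 led by TPM at DIV0 with 51.1% and 46.7%, Grik1 at DIV7 with 57.2% and 70.7%, and Grik2 at DIV28 with 34.6%, 43.3% and 41.3%. As shares of summed expected counts, which are not scaled to length, the order differed. Grik3 then led at DIV0 with 32.9% and 42.2%, beside 32.2% and 27.2% for Grik5. At DIV28 Grik2 led in replicate 1 (30.0%), Grik3 in replicate 2 (35.5%) and Grik1 in replicate 3 (38.0%). Across the 3 culture times, 4 of the 9 shares differed in an exact permutation test over 210 arrangements, namely Gria4, Grik1, Grik2 and Grik4 (adjusted p = 0.0429 each), and none did so with any one library left out.

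Over the culture steps, 3 members rose from DIV0 to DIV7 (Gria1, Grik1 and Grik2) and none fell, beside 8.36% of 12890 genes called higher and 2.81% lower, and 2 fell from DIV7 to DIV28 (Grik1 and Gria3) and none rose, beside 4.09% called lower and 3.62% higher. Grik3 was higher at DIV28 than at DIV7 by 1.18 (adjusted p = 0.0321), short of the unadjusted limit. The 2 calls also hold without the titled-DIV0 library, at -2.80 for Grik1 and -1.645 for Gria3. Astrocytes were in these dishes, and 6 astrocyte markers summed to 376 to 499 normalised counts at DIV0, 733 to 1337 at DIV7 and 236 to 717 at DIV28, a course that Grik1 shares in direction. In tissue the same markers summed to 964 to 1148 at E13.5, 2769 to 3515 at P4 and 2060 to 2659 at P13, which Grik1 also shares in direction. The part of astrocyte RNA was not tested in either. With the titled-DIV0 library placed in DIV0, as its title has it but not the study's replicate counts, none of the calls of these culture steps was made.

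Tissue and culture were compared at their ends. At the start, DIV0 against E13.5, 4 members were higher in culture (Gria2, Grik4, Grik3 and Grik5, by 1.80 to 2.46 on the log2 scale) and Gria1 was lower (-5.18 ± 0.53, adjusted p = 4.31e-08), beside 15.1% of 15521 genes called higher and 24.3% lower. The erythroid and endothelial markers listed above were at 1.5 to 6.5 and 1.3 to 1.5 normalised counts at DIV0. The 5 motor neuron markers summed to 4675.9 and 5764.5 at DIV0, beside 767 and 1602 at E13.5. The part of this gap in the calls was not tested. Leaving out E13.5 replicate 2 ended the call of Grik3 and added Gria4 and Grik1 as lower (-1.40 and -2.11), and leaving out E13.5 replicate 1 added Gria3 as higher (1.29); Grik3 was also not called without DIV0 replicate 2 (1.465). At the end, DIV28 against P21, Grik3 was 10.1-fold higher in culture (log2 3.34 ± 0.36, adjusted p = 1.25e-07), and Gria3 (-5.00 ± 0.22, adjusted p = 3.56e-13), Grik4 (-1.78 ± 0.25, adjusted p = 5.20e-06) and Gria4 (-1.52 ± 0.24, adjusted p = 1.70e-05) were lower, beside 13.3% of genes called higher and 13.1% lower. Gria2 differed by -0.47 (interval -0.99 to 0.05) and Grik5 by 0.00 (interval -0.50 to 0.51), neither of which passed. Grik1, at 1.19 (unadjusted p = 0.00139 in edgeR's test, adjusted p = 0.00408), was called without DIV28 replicate 2 (1.45). All 4 calls held without the titled-DIV0 library, at 3.48 for Grik3, -4.98 for Gria3, -1.78 for Grik4 and -1.71 for Gria4.

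The change over the culture span (DIV28 over DIV0) was set against that over the tissue span (P21 over E13.5) in a single contrast. The contrast equals the difference of DIV28 from P21 less that of DIV0 from E13.5, so it is not separate from the comparisons above. The change differed for 6 of the 9 members, 2 with the larger change in culture and 4 with the larger in tissue, beside 24.2% and 17.5% of genes. Gria3 differed most in favour of tissue among the 9, at -5.71 ± 0.33 (log2, adjusted p = 2.57e-11): the ratio of group means was 4.60 in tissue and -1.16 in culture. Gria1 differed most in favour of culture, at 5.83 ± 0.60 (adjusted p = 4.49e-08), with ratios of 0.89 and 6.63. Grik4 (-3.69 ± 0.42, adjusted p = 1.65e-07), Gria2 (-2.93 ± 0.41, adjusted p = 2.57e-06), Grik1 (2.63 ± 0.54, adjusted p = 0.000231) and Grik5 (-1.80 ± 0.39, adjusted p = 0.000396) made up the rest. Grik2 rose in both, by 2.17 and 1.91, with a difference of -0.19 (interval -0.84 to 0.46). That difference was -0.81 without E13.5 replicate 1 and 0.21 without E13.5 replicate 2. Without the titled-DIV0 library the same 6 were called, with values from -5.63 (Gria3) to 5.63 (Gria1). E13.5 replicate 1 decided that of Grik1, which was 1.35 and not called without it. Grik5 was not called without E13.5 replicate 2 (-1.52), P21 replicate 1 (-1.45) or DIV0 replicate 2 (-1.68).

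**Figure D3:**
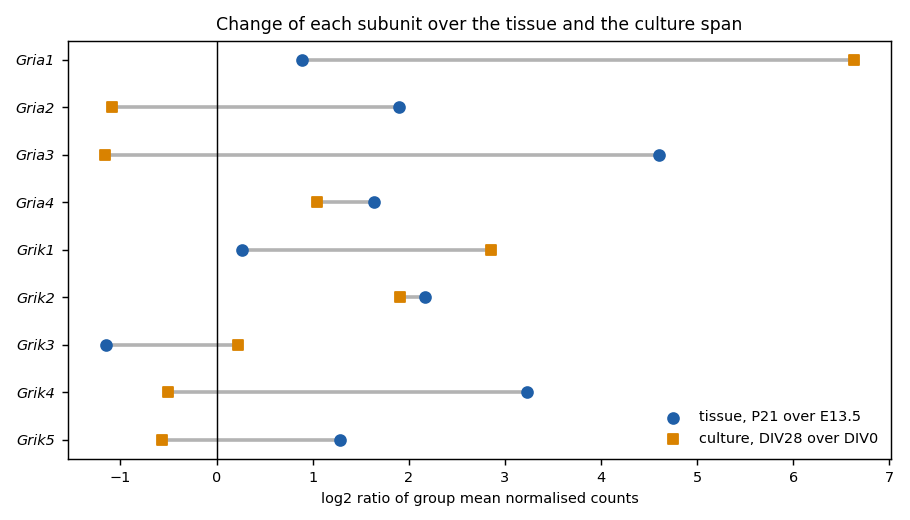
Log2 ratio of group mean normalised counts for each subunit over the tissue span (P21 over E13.5, blue circles) and the culture span (DIV28 over DIV0, orange squares), joined by a grey line. Gria3 and Gria1 have the longest lines, in opposite directions, and Grik2 and Gria4 the shortest.

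Silencing with TTX did not give a call for any member, beside 0.683% of genes called in either direction at DIV28. At an unadjusted p under 0.05 in the same edgeR test, which does not use the pairs, 1 member passed, Gria3, which read 97.3, 86.2 and 93.4 without TTX and 130, 158 and 133 with it. The groups do not overlap and each TTX culture was above its parallel culture, but the change of 0.59 (log2, interval 0.12 to 1.06) had an adjusted p of 0.459. Grik3 was lower in 3 of 3 pairs, from 484, 769 and 483 to 429, 419 and 321, by 0.59 (interval -1.22 to 0.03; adjusted p = 0.675). With the pair as a block in a fit of the 6 libraries alone, an alternative added after seeing the data, its change was -0.57 ± 0.14 (adjusted p = 0.0166), still under 2-fold. In that fit 4 members passed an unadjusted limit of 0.05: Grik3, Gria3 (0.61, interval 0.17 to 1.05; adjusted p = 0.0763), Gria2 (-0.28, interval -0.51 to -0.05; adjusted p = 0.115) and Grik2 (-0.29, interval -0.53 to -0.05; adjusted p = 0.121). In the fit without pairs, the log2 change of the other members lay between -0.29 (Grik2) and 0.22 (Gria4), and their intervals ran from -1.04 to 0.85 at the ends. Without the titled-DIV0 library the change was 0.59 for Gria3 (adjusted p = 0.633) and -0.71 for Grik3 (adjusted p = 0.643), and no member was called.

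As shares, TTX left Gria2 at 57.7%, 64.3% and 67.0% of the AMPA family, against 68.4%, 69.4% and 72.5% without it. Gria2 was lower in 3 of 3 pairs, by 7.1 percentage points on average, and Gria4 higher in 3 of 3, by 5.19 points. In the exact permutation test both gave p = 0.1 (two-sided), the smallest that 3 against 3 libraries allow, with an adjusted p of 0.45. Grik2 lost 6.14 points of the kainate family, also in 3 of 3 pairs (exact permutation p = 0.2). The summed motor neuron markers were lower in the TTX libraries too, at 909 to 1564 beside 1634 to 1987, and their part in these values was not tested.

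Receptors work with auxiliary and scaffold proteins, and 35 such genes were followed with the members. TARPs and related Cacng genes, cornichons, Shisa proteins and Gsg1l modulate AMPA receptors, Neto1 and Neto2 kainate receptors, and the Adar genes edit or resemble editors of subunit RNA. Of the 32 that could be tested in tissue, 7 rose and 3 fell from E10.5 to E13.5, shares below the 24.6% and 19.4% of all genes, from Cacng3 at 6.02 ± 0.71 (log2, SE; adjusted p = 8.92e-07) to Cacng7 at -3.82 ± 0.21 (adjusted p = 8.31e-11), both of the TARP family. From E13.5 to P4, 18 rose and 1 fell, beside 23.8% and 19% of all genes, from Shisa9 at 4.10 ± 0.37 (adjusted p = 4.53e-08) to the scaffold gene Grasp at -2.01 ± 0.35 (adjusted p = 6.4e-05), with a median of 1.42 beside 0.12 for all genes. After P4, 1 rose (Frrs1l, an AMPA receptor assembly factor, at 1.22 ± 0.23) and 3 fell (lowest Shisa6, at -1.90 ± 0.32) from P4 to P13, beside 5.8% of all genes higher and 7.54% lower, Cacng8 alone rose from P13 to P21 (1.80 ± 0.38, adjusted p = 0.00261), and none was called at the later steps. Over E13.5 to P21, 21 rose and 3 fell, beside 29.8% and 26.3% of all genes, between Cacng8 at 3.97 ± 0.46 and Grasp at -2.76 ± 0.38.

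In culture, 11 of 33 rose and 5 fell from DIV0 to DIV7, where 8.36% of all genes were called higher and 2.81% lower, from Shisa9 at 6.77 ± 0.85 (adjusted p = 0.000227) to Adarb2, a brain protein related to the editing enzymes, at -4.69 ± 0.86 (adjusted p = 0.00233). From DIV7 to DIV28, Nptx1, a pentraxin that clusters AMPA receptors, rose by 3.39 ± 0.43 and 6 fell, beside 3.62% and 4.09% of all genes, the lowest being Shisa6 at -2.77 ± 0.59. Under TTX, Neto1 was higher (1.56, adjusted p = 0.0909) and Cacng3 lower (-1.44, adjusted p = 0.0722) at the unadjusted limit alone, 2 of 33 beside 0.683% of all genes. Against tissue, 8 of 34 were higher and 3 lower at DIV0 than at E13.5 (15.1% and 24.3% of all genes), from C1ql3 at 3.71 to Grasp at -3.72, and 8 were higher and 5 lower at DIV28 than at P21 (13.3% and 13.1%), from the pentraxin gene Nptx2 at 4.29 ± 0.70 to Adarb2 at -9.105 ± 0.46. The spans differed for 16, of which 6 favoured culture and 10 tissue (24.2% and 17.5%), Nptx2 (6.90 ± 1.14) and Adarb2 (-8.75 ± 0.60) being the extremes.

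Similarity of pattern was described by Pearson's r of log2(normalised count + 1) over the 22 nuclear libraries without TTX, among 15521 genes. These libraries share stages and tissue, so the values describe this series alone. Dlg2, the scaffold gene for PSD-93 and a member of the partner list, was nearest to Grik2 (r = 0.99), followed by Eml6 (0.974). Gria3 was nearest to Adra1a, an alpha-1 adrenergic receptor gene (0.98), and Gm13112 (0.971), Gria1 to Gprin3 (0.976) and then Pcdh17, a protocadherin, and Gria4 to Lrrc4c, a synaptic adhesion gene (0.98), and Gm38024 (0.979). Gria2 was nearest to Rims2, an active zone gene (0.935), and Creb5 (0.93). Among the other kainate genes, Grik1 was nearest to Pcdh19 (0.941) and Perp (0.935), Grik3 to Nckap5 (0.943) and Gm13135 (0.908), Grik4 to Trim66 (0.96) and Gm37517 (0.955), and Grik5 to Camsap3 (0.913) and Sgsm2 (0.912).

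Chromatin at the start sites was open for most members in most conditions. A peak overlapped 500 bases either side of an annotated start in 181 of 198 combinations of member and library (91.4%), beside 82.4% to 85.9% of 15508 genes per library. The other members (Gria2, Gria4, Grik1, Grik2, Grik3 and Grik4) had one in 22 of 22 libraries, whatever their RNA level: Grik1 at E10.5, with at most 5.34 normalised counts of RNA, had start-site peaks of 5.03-fold and 6.89-fold enrichment. Peaks were called for each library separately, with 80386 to 224328 peaks per library, so ranks and counts move with depth, and with 2 libraries a condition no test was made.

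Gria1, Gria3 and Grik5 were the members without a start-site peak in some libraries. No library of E10.5 or DIV0 had a peak at Gria1, while all 18 others did, with 2.89-fold to 17.3-fold enrichment, the highest at E13.5, while Gria1 RNA in tissue was highest at P4. E10.5 and DIV0 were also the conditions with the least Gria1 RNA. Their peak lists were among the shortest, at 80386 and 97002 peaks at E10.5 and 94520 and 80818 at DIV0. P4 replicate 2 and DIV7 replicate 1, with 96168 and 95519 peaks, did have a peak at Gria1. The part of list length was not tested. Within 2000 bases, 1 E10.5 and 1 DIV0 library had a weak peak, of 2.73-fold and 2.46-fold. The Gria3 peak was among the 60000 best of its library in 12 of 12 libraries from E13.5 to 2 years and 2 of 2 at DIV0, but in 1 of 6 from DIV7, DIV28 and TTX, where the peaks found ranked in the top 35.4% to 62.0% of the list. This drop was not particular to Gria3. The Gria1 peak was among the 60000 best in 12 of 12 libraries from E13.5 to 2 years. From DIV7, DIV28 and TTX it was so in 2 of 6, with ranks in the top 38.5% to 72.5%, while Gria1 RNA was high there. Grik5 had the weakest chromatin signal of the 9: a peak was called in 11 of 22 libraries, none above 3.51-fold.

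**Figure D4:**
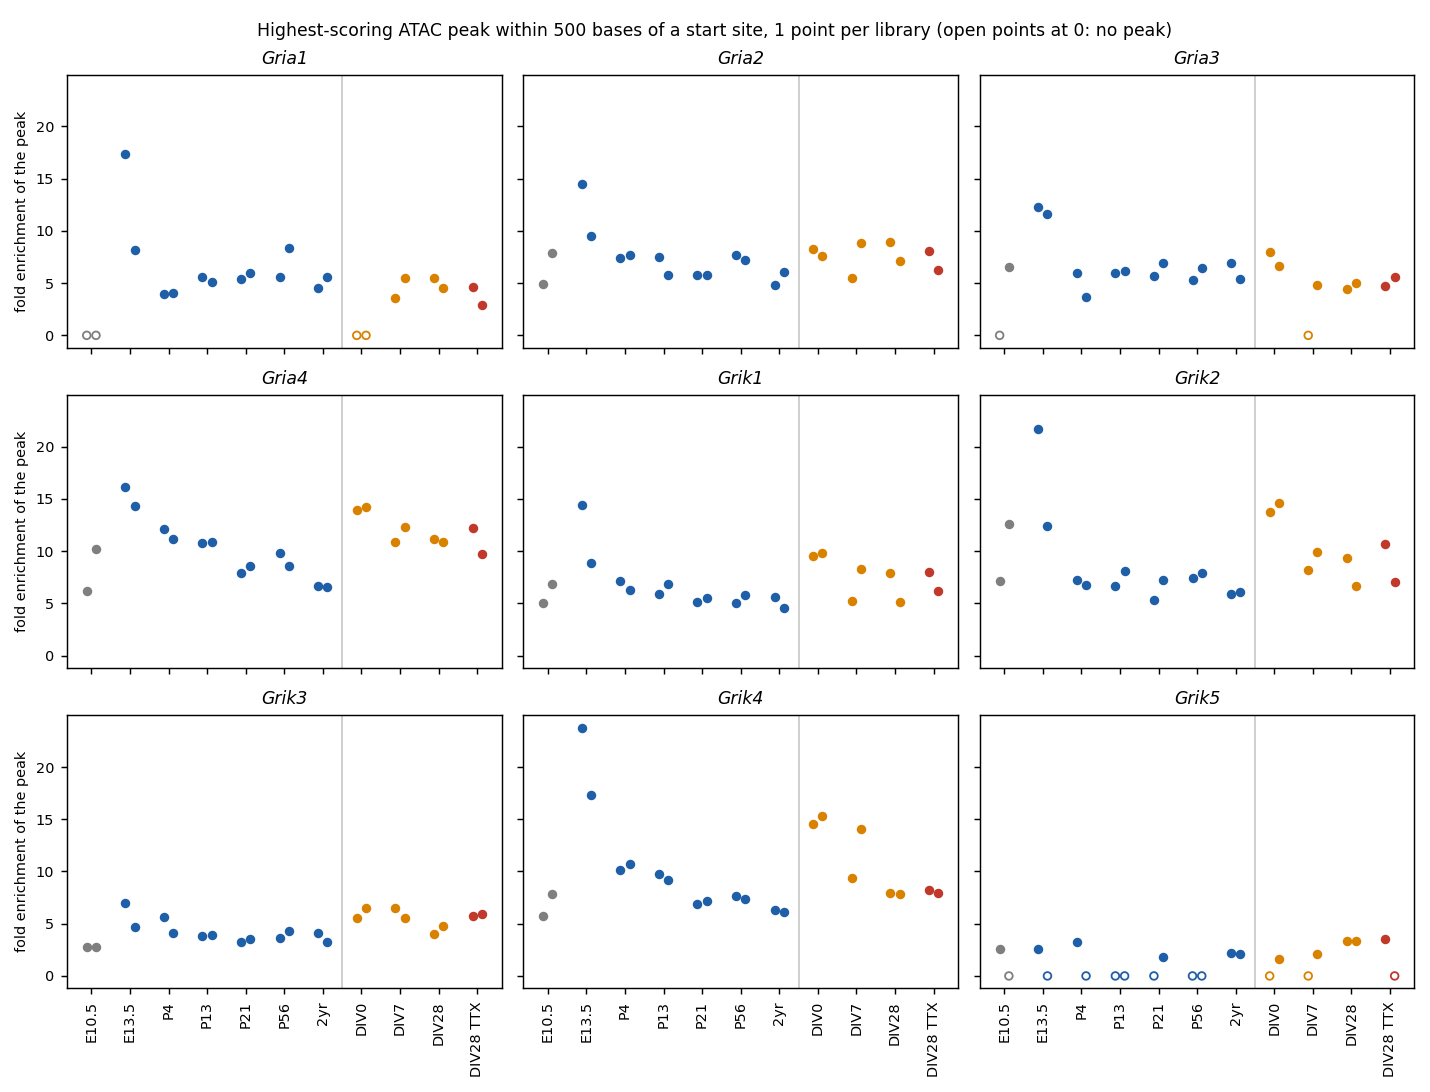
Fold enrichment of the best ATAC peak within 500 bases of a start site of each subunit gene, 1 point per library and 2 libraries per condition, with open points at 0 for libraries with no peak. Gria1 has open points at E10.5 and DIV0 only, and Grik5 has open points in 11 of 22 libraries and no value above 3.51.

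Peaks along the gene bodies, counted among the 60000 best of each library, were most numerous in Grik4 and Grik3 at DIV0, with 30 and 35 in Grik4 and 19 and 20 in Grik3, beside 17 to 27 and 5 to 12 from P4 to 2 years. In Gria1 they went from 2 and 3 at E10.5 to 10 to 24 in postnatal libraries. Gria3 held 1 to 7 in tissue from E13.5 on and 0 or 1 in cultures from DIV7 on.

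Merging the best peaks over all libraries gave 315 regions in the 9 genes, from 9 in Grik5 to 87 in Grik4. There were 3 regions in the best lists of at least 9 of the 10 postnatal libraries and in no list of the 8 culture or 4 embryonic libraries. All 3 are intronic on the mm10 build: chr11:57307673-57308641 in Gria1, chr10:49219638-49220636 in Grik2 and chr9:42538642-42539422 in Grik4, with 2.33-fold to 5.66-fold enrichment. These 3 regions were picked for this pattern, in a search that allowed 1 culture list, and the pattern is therefore a description. The reverse search, for regions of culture and not of postnatal tissue, asked for the best lists of at least 7 of the 8 culture libraries. It found 0 regions. The share of regions with either pattern over all genes was not counted. The Grik4 region was not called in P4 replicate 1. A stretch of 300 bases within each, at the positions given, is printed on the plus strand, since these regions were picked for the pattern. Capitals mark an AP-1 match, TGANTCA, found in 17.5% of regions of this length around the 60000 best peaks of P21 replicate 2.
Gria1 intron, chr11:57308046-57308345: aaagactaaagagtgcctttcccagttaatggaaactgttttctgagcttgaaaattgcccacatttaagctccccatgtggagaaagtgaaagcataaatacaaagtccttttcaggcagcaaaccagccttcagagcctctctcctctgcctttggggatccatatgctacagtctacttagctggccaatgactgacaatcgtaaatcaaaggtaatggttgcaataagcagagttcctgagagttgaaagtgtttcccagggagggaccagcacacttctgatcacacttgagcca
Grik2 intron, chr10:49220050-49220349: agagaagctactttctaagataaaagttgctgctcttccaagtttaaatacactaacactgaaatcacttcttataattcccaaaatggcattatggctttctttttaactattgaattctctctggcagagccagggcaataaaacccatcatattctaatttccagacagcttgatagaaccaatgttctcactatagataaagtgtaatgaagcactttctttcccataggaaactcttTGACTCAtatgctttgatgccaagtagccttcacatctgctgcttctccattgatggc
Grik4 intron, chr9:42538891-42539190: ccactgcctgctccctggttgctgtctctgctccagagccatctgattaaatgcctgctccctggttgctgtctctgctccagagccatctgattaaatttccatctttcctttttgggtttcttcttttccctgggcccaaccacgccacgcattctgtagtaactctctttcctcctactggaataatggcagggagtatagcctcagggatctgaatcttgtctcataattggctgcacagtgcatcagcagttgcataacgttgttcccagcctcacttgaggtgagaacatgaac
The Grik2 region alone holds the AP-1 letters, and none of the 3 holds the RE1, GC box, TGACGTCA or Mef2 letters given above. They lie 131639 bases (Gria1), 22899 bases (Grik2) and 269667 bases (Grik4) from the nearest annotated start. The RNA of all 3 genes was called higher at P4 than at E13.5, as given above, while at DIV28 Gria1 and Grik2 did not differ from P21 by a call.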

How the data were processed

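RNA was made into libraries with a stranded total RNA kit for low input. Per the methods and the submitters' processing notes, the authors trimmed reads with Trim Galore (cutadapt 0.6.2), aligned them with STAR 2.5.2b to mm10 and deposited RSEM 1.3.0 expected counts and TPM per gene for each library; RSEM divides reads shared by similar transcripts, so counts need not be whole. For ATAC-seq the authors aligned with BWA 0.7.1.7 and SAMtools 1.7.2 and called peaks per library with MACS2 2.2.7.1; the deposited peak files give signal as fold enrichment and a −log10 p-value, with no p adjusted over libraries.

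The expected counts were rounded and tested with edgeR 4.0.16 (quasi-likelihood, TMM factors) on genes with at least 5 CPM in every library of at least 1 group, in 3 fits: in vivo (18 libraries), culture (10) and both without TTX (25). A gene was called at an unadjusted p under 0.001 and at least 2-fold, after the study; adjusted p-values are Benjamini-Hochberg over all genes tested. Printed levels are counts over median-of-ratios factors. The test was checked on simulated counts. Counting intervals cover counting error only. Members, lists, tests and named genes (all members, the highest and lowest called partner per comparison, the 2 nearest genes per member) were chosen with earlier results of these data known. Parallel cultures with and without TTX share a replicate number, and their deviations from the group means correlated at 0.561, 0.487 and 0.648 (pairs 1 to 3), so the numbers pair the libraries. Alternatives were DESeq2 1.42.0, other factors, no filter, a replicate block, fits of the compared groups alone, an adjusted limit and leaving out each library. Start sites came from an mm10 annotation, and sequences from RefSeq on GRCm38.p6.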

Additional observations from a re-analysis of the deposited data

Results flagged for a closer look

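For 6 subunits the change from DIV0 to DIV28 in culture differed from the change from E13.5 to P21 in tissue, by the contrast of both spans in edgeR's quasi-likelihood test over 25 libraries. The difference, culture minus tissue on the log2 scale, was 5.83 for Gria1 and 2.63 for Grik1, which favour culture, and -5.71 for Gria3, -3.69 for Grik4, -2.93 for Gria2 and -1.80 for Grik5, which favour tissue. The E13.5 libraries that carry the erythroid and endothelial markers enter each of these values, and the part of those markers was not tested. The summed motor neuron markers were at 767 and 1602 at E13.5 and at 4675.9 and 5764.5 at DIV0, and their part was not tested either. Without E13.5 replicate 1 the values were 5.02, 1.35, -6.26, -3.91, -3.64 and -2.20 in the same order, of which that of Grik1 was no longer called. By arithmetic the contrast is the gap of DIV28 from P21 less that of DIV0 from E13.5. For Gria1, Gria2 and Grik5 the starting gap was called (-5.18, 2.46 and 1.80) and the end gap was not (0.64, -0.47 and 0.00). That of Gria1 rests on 3 and 8 expected counts at DIV0.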

How the results depend on the processing

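Of 616 values of single members under alternative settings, 560 kept their direction and their side of the threshold, 34 were no longer called, 21 became called and 1 reversed. The reversal was Gria1 from E13.5 to DIV0, at 0.34 (log2, not called) with the library titled DIV0 replicate 3 placed in DIV0. With that library there, the number of members called was 0 from DIV0 to DIV7, 0 from DIV7 to DIV28 and 3 for the difference of spans, and 0 culture shares differed. From P4 to P13 it was 1 with median-of-ratios factors and 1 to 2 with one library left out, and from DIV7 to DIV28 it was 4 with no filter on low counts. The 4 culture shares became 0 with any one library left out, where the smallest adjusted p ranged from 0.0643 to 0.15 and the arrangements are fewer. Gene-body peaks of the members numbered 1582 in the best 60000 of each library and 5641 in all peaks. With the replicate block, 7 members were called from E10.5 to E13.5 in place of 8 (Grik3 was lost), 4 from DIV0 to DIV7 in place of 3 (Gria4 was added) and 0 under TTX; it changed no other call of a member. Depth and 2 libraries in many groups limit the precision for the lowest genes, Gria1 at DIV0 and Grik1 at E10.5. Over all genes, the calls from DIV7 to DIV28 were 466 higher and 527 lower, and 835 and 792 in DESeq2, 1166 and 1066 with no filter, 733 and 786 with the replicate block and 1031 and 1000 at the adjusted limit. From DIV0 to DIV7 they were 1078 and 362, and 1887 and 770 with no filter, 1531 and 957 in the 4 libraries alone and 1807 and 977 at the adjusted limit. Under TTX they were 36 and 52, and 90 and 97 in DESeq2, 186 and 179 with no filter, 81 and 91 with the replicate block and 9 and 18 at the adjusted limit. From E10.5 to E13.5 they were 3702 and 2919, and 2036 and 1681 in the compared groups alone. From P13 to P21 they were 226 and 871, and 453 and 1248 with no filter and 431 and 1228 at the adjusted limit. From P21 to P56 they were 7 and 19, and 44 and 71 with no filter and 1 and 7 at the adjusted limit. From P56 to 2 years they were 75 and 28, and 177 and 104 with no filter, 115 and 76 in the compared groups alone and 38 and 22 at the adjusted limit. With the library titled DIV0 replicate 3 in DIV0 they were 109 and 59 from DIV0 to DIV7, 61 and 57 from DIV7 to DIV28 and 3 and 9 under TTX, and with the pairs as a replicate block in the 6 TTX and DIV28 libraries alone, chosen after seeing the data, they were 127 and 154. The causes were not tested.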
